A study of Rattus norvegicus with 4 samples.

Results

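Sox10 and the other transcription factors of the Schwann cell lineage were followed here in RT4D6 cells, a rat Schwannoma line, in which the RNA of Sox10 had been targeted by an siRNA. The factors were Sox10, Sox2, Sox13, Sox4, Sox11, Egr2, Pou3f1, Pax3, Zeb2 and Tfap2a. Their probe sets were taken wherever the platform annotation gives exactly 1 gene symbol and that symbol is one of these 10, which gave 23 of the 31042 probe sets left after removal of the controls. These stand for 9 of the 14217 genes with a probe set under a single symbol. Pax3 has no probe set under this rule and was not analysed here. One group was 2 arrays of cells given a wild type siRNA against Sox10 (the specific siRNA), and the other 2 arrays of cells given a mutant Sox10 siRNA as control, each sampled at 48 h and numbered as replicate 1 and replicate 2. All 4 come from the same tumour line, so that the replicates are cell samples of 1 line and not animals, and a primary Schwann cell was not measured. Each value is a MAS5 signal, a brightness in arbitrary units that the Affymetrix software computes over the probes of a probe set.

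Schwann cells are the glia of peripheral nerves and arise from the neural crest. Sox10, a factor with an HMG box DNA-binding domain, is present from the neural crest stem cell onward and stays on in peripheral glia and melanocytes. Sox2 belongs to the immature Schwann cell, and Pou3f1 (Oct-6) and then Egr2 (Krox20) drive the step into myelination, with Zeb2 as a repressor of inhibitors of that step. Pax3 and Tfap2a act early, in the neural crest and the Schwann cell precursor, and Sox4, Sox11 and Sox13 are further HMG box factors, the first pair of the SoxC class and Sox13 of the SoxD class.

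The sequences behind these factors are shown for 2 purposes. The first is the Sox10 locus itself, where the study designed a primer pair for chromatin immunoprecipitation, an assay that was not analysed here. The anti-sense primer starts with the letters ATTGT, the core that the study took for binding of Sox proteins, and the sense primer holds the related Sox letters ACAAAG. Both are set in capitals.
Sox10 ChIP sense primer: ggtggatagtgggacACAAAGag
Sox10 ChIP anti-sense primer: ATTGTccaaggccagcgag
The second is the promoters of the 3 other factors whose values are described most closely below, Sox13, Zeb2 and Egr2. They are the 250 bases before the RefSeq start on GRCr8, minus strand in each case, at chr13:47427573-47427822 for Sox13, chr3:49754324-49754573 for Zeb2 and chr20:21054442-21054691 for Egr2. Capitals mark a match to the Sox core ACAAT, to the related Sox letters ACAAAG or to the CArG box, the element that serum response factor binds in immediate early genes.
Sox13: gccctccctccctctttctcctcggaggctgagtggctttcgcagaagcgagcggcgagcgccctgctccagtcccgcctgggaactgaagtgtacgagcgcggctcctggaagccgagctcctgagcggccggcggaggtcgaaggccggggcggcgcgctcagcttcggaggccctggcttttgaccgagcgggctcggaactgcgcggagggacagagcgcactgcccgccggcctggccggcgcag
Zeb2: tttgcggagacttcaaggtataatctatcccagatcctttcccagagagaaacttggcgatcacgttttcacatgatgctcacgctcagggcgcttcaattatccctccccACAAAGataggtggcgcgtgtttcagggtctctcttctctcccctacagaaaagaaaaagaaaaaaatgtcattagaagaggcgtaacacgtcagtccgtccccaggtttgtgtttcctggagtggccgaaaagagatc
Egr2: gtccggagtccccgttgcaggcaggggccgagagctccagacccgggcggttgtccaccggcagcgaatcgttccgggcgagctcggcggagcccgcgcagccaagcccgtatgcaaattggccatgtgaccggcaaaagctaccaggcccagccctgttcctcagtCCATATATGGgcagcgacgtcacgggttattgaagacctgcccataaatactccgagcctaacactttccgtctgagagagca

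Promoters of 6 of the 10 factors were matched by gene symbol, those of Sox2, Zeb2, Sox11, Pax3, Sox13 and Egr2. Each was searched over 300 bases, 250 before and 50 after the start, on both strands. The letters ACAAT were in 0 of the 6 windows and in 33.7% of all 33469 promoters of that length. ACAAAG was in 1 window, that of Zeb2, and in 18.8% of all promoters. The CArG box was in 1 window, that of Egr2, as CCATATATGG, and in 1.64% of all promoters. The motifs do not overlap each other in these windows. A match is a description of the letters, and a window without one says nothing on sites elsewhere in the gene.

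The median signal of the arrays was between 102 and 111 and the 25th percentile between 26.2 and 31.1, and signals near that percentile are close to background. Signals were turned to log2, centred on the median of each array and compared with limma. The test took in the 16125 probe sets that reached the median of the array on 2 or more of the 4 arrays, and a Benjamini-Hochberg adjusted p under 0.05 counted as a call. The 3' to 5' ratio of the Gapdh control, a sign of RNA quality, lay between 1.06 and 1.11. That of beta-actin lay between 1.39 and 1.87 and that of hexokinase between 1.70 and 2.85, with 1.70 (specific siRNA) and 1.71 (mutant siRNA) on the replicate 1 arrays, and 2.20 (specific siRNA) and 2.85 (mutant siRNA) on the replicate 2 arrays. The part of these ratios in any result was not tested. The median log2 fold change over all tested probe sets was 0.13 after this centring, against 0.05 with signals as deposited and 0.08 with quantile normalization, so small changes are to be gave signals of relative to that shift. The number of arrays limits the precision.

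Of the 23 probe sets, 20 passed the filter on low signals, and they stand for all 9 measured genes. With the specific siRNA 2 were lower, those of Sox10 and Sox13, and 1 was higher, 1 of the 5 of Zeb2. The other 17 did not pass. At an unadjusted p under 0.05 there were 4, the fourth being a second probe set of Zeb2. The share of all tested probe sets at that unadjusted p was not counted. These 4, and the list counts at it below, thus stand without a background. Over all tested probe sets 12.1% were called lower and 14.6% higher, so that a share of 15.0% called in either direction among these factors was below that of the array as a whole. The median log2 fold change of the 20 was -0.11, with 11 below and 9 above 0, against 0.13 over all tested probe sets. In 6 of the 20 both specific siRNA arrays lay below both mutant siRNA arrays, and in 2 both lay above. Over all tested probe sets these shares were 31.9% and 35.8%.

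**Figure D1:**
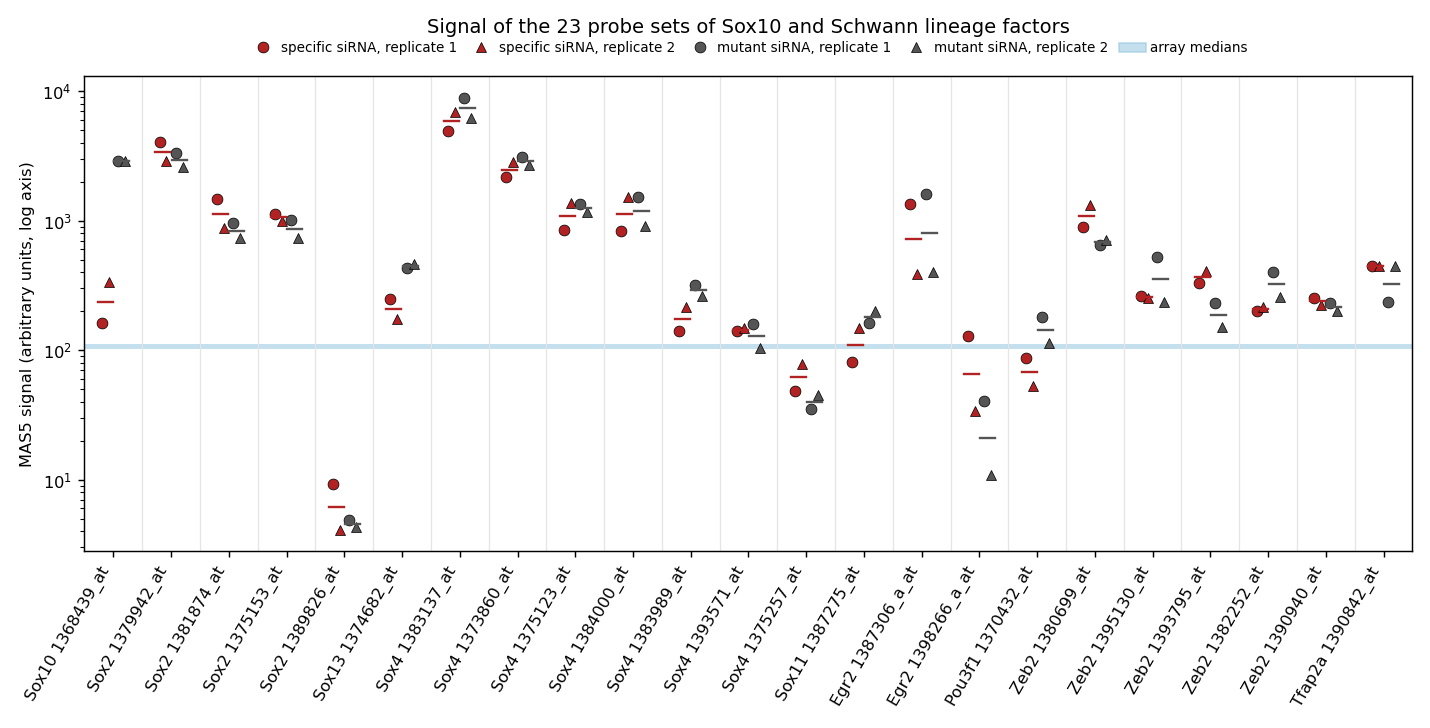
MAS5 signal (log axis) of the 23 probe sets on the 4 arrays, with the geometric mean of each group as a horizontal line and the range of the array medians as a blue band. Both specific siRNA arrays of Sox10, at 163 and 335, lie far below the mutant siRNA arrays at 2873 and 2890, whereas the groups of most other probe sets overlap or nearly touch.

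Sox10 (probe set 1368439_at), the target of the siRNA, gave signals of 163 and 335 under specific siRNA (replicates 1 and 2) and 2873 and 2890 under mutant siRNA. The groups averaged 249 ± 122 and 2881 ± 12.4 (SD, n = 2 each). The mutant siRNA arrays thus hardly differed, and the spread came from the specific siRNA arrays, where replicate 2 was 1.09 above replicate 1 on the log2 scale. Set against the array of the same number, Sox10 retained 5.69% of its signal in replicate 1 and 11.6% in replicate 2. The log2 fold change was -3.54 (SE 0.33, limma adjusted p = 0.00130), with a 95% confidence interval from -4.30 to -2.78. Every fit that left out 1 array kept the call. In bulk RNA, fewer cells that express a gene and less RNA per cell cannot be told apart, here and in all that follows.

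The genes whose profile over the 4 arrays came closest to that of Sox10 were Anxa8, Mia, Serpinf1, Anp32e and Akr7a3, out of 12696 tested probe sets with a single symbol of other genes. Likeness was the root mean square difference of log2 signals, each profile centred on its own mean. It was 0.17 for Anxa8, an annexin, 0.23 for Mia, a protein that melanoma cells and glia secrete, and 0.24 for Serpinf1, the secreted factor PEDF. With 4 arrays that form 2 groups, this is a description of size and shape only. Mia had 138 and 180 under specific siRNA and 2000 and 1991 under mutant siRNA. Serpinf1 had 681 and 1509 under specific siRNA and 8317 and 10945 under mutant siRNA, and like Sox10 was lowest on specific siRNA replicate 1. Anxa8 had 17.3 and 32.5 under specific siRNA, close to background, and 293 and 225 under mutant siRNA. Like Akr7a3, it passed the filter only through the mutant siRNA arrays, a selection that favours a lower value under specific siRNA. Its call (adjusted p = 0.00883) did not hold without mutant siRNA replicate 1 (adjusted p = 0.117) or replicate 2 (adjusted p = 0.0706), and that of Akr7a3 (adjusted p = 0.00519) without mutant siRNA replicate 1 (adjusted p = 0.0550).

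Sox13 (1374682_at), whose SoxD class lacks a known transactivation domain, gave signals of 248 and 174 under specific siRNA and 429 and 463 under mutant siRNA. The groups did not overlap, and the lower specific siRNA array was replicate 2, the reverse of Sox10. The log2 fold change was -1.02 (SE 0.27, limma adjusted p = 0.0278), with -0.76 between the replicate 1 arrays and -1.29 between the replicate 2 arrays. The call was lost without specific siRNA replicate 2 (adjusted p = 0.0723), mutant siRNA replicate 1 (adjusted p = 0.106) or mutant siRNA replicate 2 (adjusted p = 0.131), and just missed the threshold when no filter was applied (adjusted p = 0.0501) or when the variance was modelled without an intensity trend (adjusted p = 0.0511).

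Sox2, which is active in neural progenitors and in the immature Schwann cell, was represented by 4 probe sets, of which 3 were tested and none passed. The brightest (1379942_at) gave signals of 4022 and 2904 under specific siRNA and 3323 and 2605 under mutant siRNA. The groups overlap, and on both sides replicate 1 was the higher array. Within each pair the specific siRNA array was nevertheless the higher one, in all 3 probe sets, by between 0.20 and 0.64 on the log2 scale. The log2 fold changes were 0.30 (95% interval -0.19 to 0.78), 0.51 (-0.11 to 1.14) and 0.39 (-0.14 to 0.92), with adjusted p of 0.326, 0.190 and 0.235 from limma. The second of these passed when specific siRNA replicate 2 was left out (adjusted p = 0.0344). The fourth probe set was dark, at 4.10 to 9.20 on all arrays.

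The SoxC factors Sox4 and Sox11, which are activators in progenitor cells, did not pass in any probe set. Sox4 had 7 probe sets, 6 of them tested, with log2 fold changes between -0.66 and 0.24 and adjusted p between 0.180 and 0.991. The pairs went apart. Between the replicate 1 arrays all 6 were lower under specific siRNA, at -1.16 to -0.15, and between the replicate 2 arrays 5 of the 6 were higher, at 0.20 to 0.87, with the remaining probe set at -0.15. The brightest Sox4 probe set (1383137_at), for example, gave signals of 4941 and 6874 under specific siRNA and 8837 and 6236 under mutant siRNA. The probe set whose log2 fold change was nearest 0, at 0.01, turned to -0.07 with signals as deposited and -0.06 with quantile normalization. Probe sets of 1 gene share its RNA, so that 6 of them are not 6 independent measurements. Sox11 (1387275_at) gave signals of 81.0 and 147 under specific siRNA and 162 and 200 under mutant siRNA, a log2 fold change of -0.64 (95% interval -1.66 to 0.37, adjusted p = 0.306). Its groups did not overlap, though specific siRNA replicate 2 came close to mutant siRNA replicate 1.

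**Figure D2:**
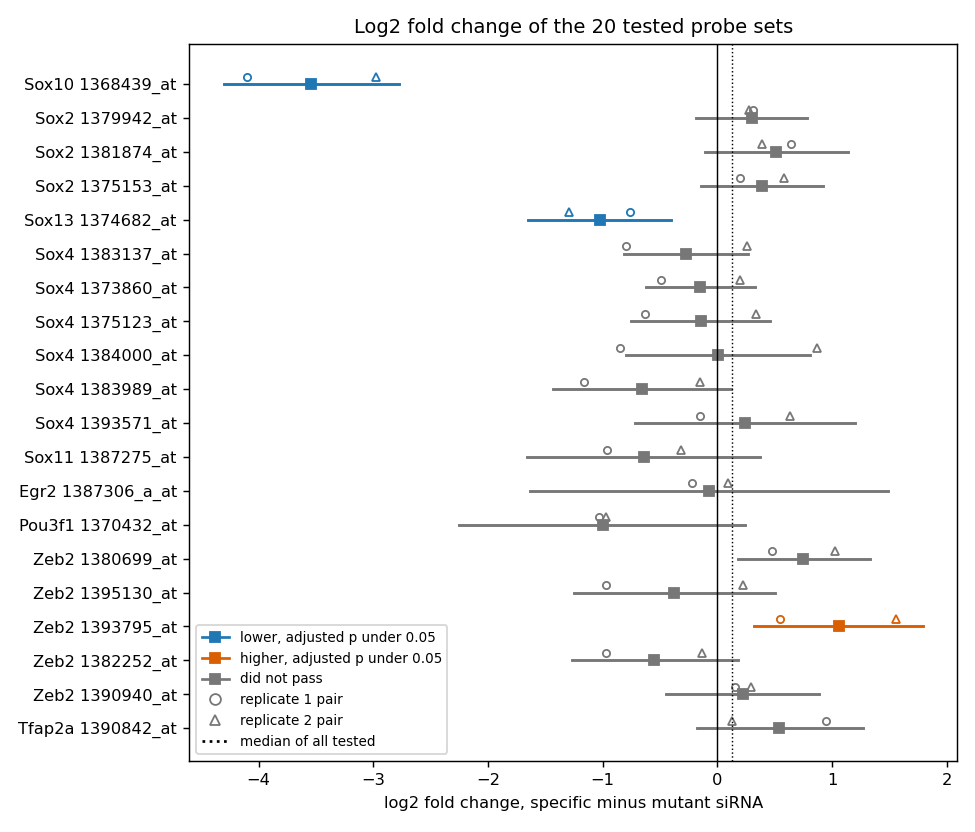
Log2 fold change, specific minus mutant siRNA, of the 20 tested probe sets (squares) with the 95% confidence interval from limma (lines); open circles and triangles are the differences within the replicate 1 and replicate 2 pairs, and the dotted line is the median of all tested probe sets, 0.13. Sox10 stands alone at -3.54, and for Sox4 the circles lie left of the triangles in all 6 probe sets.

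Pou3f1 (1370432_at), the POU factor that precedes myelination, was near the median of the arrays, at 86.3 and 52.8 under specific siRNA and 181 and 113 under mutant siRNA. It passed the filter only through the mutant siRNA arrays. The groups did not overlap. Within pairs the difference was nearly the same, with 47.8% of the mutant siRNA signal left in replicate 1 and 46.7% in replicate 2, or -1.03 and -0.97 on the log2 scale. Replicate 1 was the higher array in both groups, by 0.65 under specific and 0.71 under mutant siRNA. The log2 fold change of -1.0 (SE 0.54, 95% interval -2.25 to 0.24) did not pass (adjusted p = 0.198), nor did it with the replicate number as a block (adjusted p = 0.189). Of 3 tested genes on the list of POU factors none was called by limma and 2 were higher at an unadjusted p under 0.05, with Pou2f1 at 0.65 and Pou6f1 at 0.92 (adjusted p = 0.0914 and 0.0759). With that block Pou6f1 passed (adjusted p = 0.0495).

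Egr2, the zinc finger factor that switches on myelin genes, separated the arrays by replicate number and not by siRNA. The tested probe set (1387306_a_at) gave signals of 1351 and 390 under specific siRNA and 1616 and 401 under mutant siRNA. Replicate 1 was thus the high array in both groups, with replicate 2 lower by -1.74 on the log2 scale under specific siRNA and -2.05 under mutant siRNA, while the siRNA difference was -0.22 within the replicate 1 pair and 0.09 within the replicate 2 pair. Over all arrays the log2 fold change was -0.07, with an interval as wide as -1.63 to 1.49 (limma adjusted p = 0.951). That interval takes in the difference between replicates. With the replicate block the adjusted p was 0.831. The second Egr2 probe set (1398266_a_at) was too dim to be tested, with signals of 129 and 33.9 under specific siRNA and 40.2 and 10.8 under mutant siRNA. It showed the same order of replicates, but the specific siRNA array was the higher one in both pairs, by 1.71 and 1.77 on the log2 scale, so that the probe sets of Egr2 do not give the same picture.

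Among the relatives and partners of Egr2, Egr1 and Nab1 were higher under specific siRNA. Of 4 tested genes on a list of Egr and Nab genes, 2 were higher and none was lower (1 at an unadjusted p under 0.05). The list median was 0.73. Egr1, an immediate early gene and close relative of Egr2, gave signals of 6290 and 3119 under specific siRNA and 2531 and 1046 under mutant siRNA, and here too replicate 1 was the higher array in both groups. Its log2 fold change was 1.52 (SE 0.43, limma adjusted p = 0.0326), with 1.35 within the replicate 1 pair and 1.70 within the replicate 2 pair. With the replicate block the adjusted p was 2.5e-05. Without specific siRNA replicate 1 the log2 fold change was 1.04 and without mutant siRNA replicate 2 it was 0.87, and neither of those fits called it. Nab1, a cofactor that binds Egr proteins, had 884 and 812 under specific siRNA and 189 and 284 under mutant siRNA in its brighter probe set. That is a log2 fold change of 1.95 (SE 0.26, adjusted p = 0.00279), and the other probe set was at 2.12 (SE 0.34, adjusted p = 0.00489). Both passed with any array left out. Nab2, the second cofactor of this kind, was at -0.63, with 539 and 369 under specific siRNA and 818 and 654 under mutant siRNA (adjusted p = 0.101), and passed with the replicate block (adjusted p = 0.0408).

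**Figure D3:**
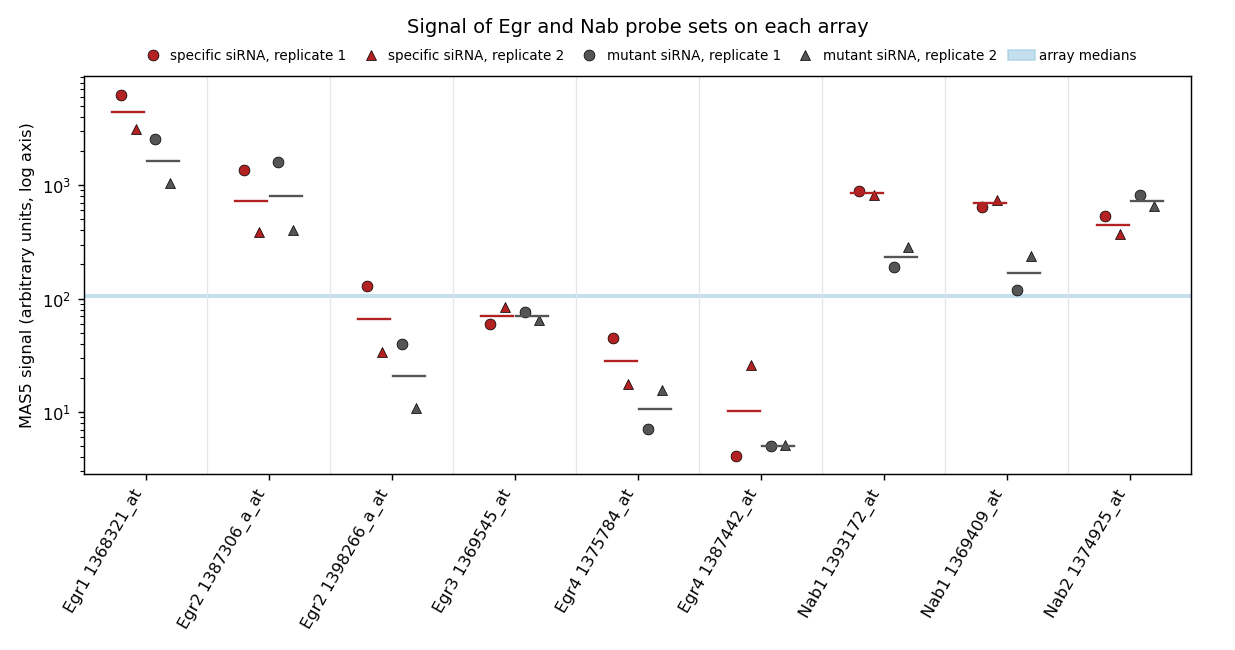
MAS5 signal (log axis) of the Egr and Nab probe sets on the 4 arrays, with group geometric means as lines and the array medians as a blue band. For Egr2 the circles (replicate 1) lie above the triangles (replicate 2) in both groups, at 1351 and 390 under specific siRNA and 1616 and 401 under mutant siRNA, whereas both Nab1 probe sets are higher on the specific siRNA arrays.

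Zeb2, a zinc finger repressor, was represented by 5 probe sets that did not move together. One (1393795_at) gave signals of 332 and 411 under specific siRNA and 232 and 152 under mutant siRNA, a log2 fold change of 1.06 (SE 0.32, adjusted p = 0.0419). This call was lost without specific siRNA replicate 2 (adjusted p = 0.128), mutant siRNA replicate 1 (adjusted p = 0.0521) or mutant siRNA replicate 2 (adjusted p = 0.207), without the filter (adjusted p = 0.0774), without the intensity trend (adjusted p = 0.0728) and with the methods' t-test (unadjusted p = 0.104). A second and brighter probe set (1380699_at), with 888 and 1329 under specific siRNA and 651 and 711 under mutant siRNA, was at 0.75 (SE 0.25) and lay just outside the threshold (adjusted p = 0.0569). It passed with the replicate block (adjusted p = 0.0167). In both, the groups did not overlap. The remaining probe sets were at 0.22, -0.38 and -0.55 (adjusted p = 0.599, 0.492 and 0.223), and in the last the specific siRNA arrays, at 201 and 217, lay below the mutant siRNA arrays at 403 and 258. A direction for the gene as a whole cannot be given from these probe sets. The related Zeb1 was at -0.06 (adjusted p = 0.848).

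Tfap2a (1390842_at), a factor of the neural crest and Schwann cell precursor, gave signals of 446 and 449 under specific siRNA and 236 and 447 under mutant siRNA. Of the 4 arrays 3 were alike, and the log2 fold change of 0.54 (95% interval -0.18 to 1.27, adjusted p = 0.231) came from mutant siRNA replicate 1, without which it was 0.10. Its relative Tfap2c, by contrast, had 237 and 238 under specific siRNA and 701 and 585 under mutant siRNA. It was at -1.35 (SE 0.24, adjusted p = 0.00705), and was no longer called without mutant siRNA replicate 1 (adjusted p = 0.0564). Tfap2b was at -0.78 in its brightest probe set (adjusted p = 0.0264), but at -0.19 and 0.50 in the others (adjusted p = 0.562 and 0.138). The call of the brightest did not hold without mutant siRNA replicate 1 (adjusted p = 0.0779), mutant siRNA replicate 2 (adjusted p = 0.150) or specific siRNA replicate 2 (adjusted p = 0.0577).

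Other genes of the same programme were counted by list, each gene by its brightest tested probe set. Over all tested probe sets fewer were called, in both directions, without mutant siRNA replicate 1, mutant siRNA replicate 2 or specific siRNA replicate 1. Each such fit leaves 1 array in a group, and lower counts by list there are not particular to these genes. In the Sox family 7 of 15 genes with a probe set were bright enough to be tested, and Sox10 and Sox13 were the 2 that were lower, with none higher, also at an unadjusted p under 0.05. Sox21 and Sox6 were at -0.48 and -0.27 (adjusted p = 0.474 and 0.681), and both passed the filter only through the mutant siRNA arrays. Among neural crest factors 5 of 10 tested genes were lower and none was higher by its brightest probe set (1 at an unadjusted p under 0.05). The list median was -0.67. With the replicate block 6 were lower, with Id3 added (-0.56, adjusted p = 0.00410, against 0.106 without the block), and 1 was higher, the brightest Zeb2 probe set. Without mutant siRNA replicate 1 the count fell to 1 lower and without mutant siRNA replicate 2 to 2 lower. Ets1, an ETS factor of the early neural crest, had 210 and 451 under specific siRNA and 1030 and 1060 under mutant siRNA, and was at -1.68 (SE 0.35, adjusted p = 0.0117). It missed the threshold when mutant siRNA replicate 1 (adjusted p = 0.0564) or replicate 2 (adjusted p = 0.0566) was left out. Id4, which holds helix-loop-helix proteins off the DNA, was at -1.33 in its brightest probe set (adjusted p = 0.00542), a call kept with any array left out. The others were at -1.17, -0.81 and -0.09 (adjusted p = 0.0488, 0.187 and 0.804), and the first of these missed the threshold with any array left out, at adjusted p of 0.0707 to 0.297. Id1, of the same class, was at -0.98 (adjusted p = 0.0494), lost without mutant siRNA replicate 1 (adjusted p = 0.0959), mutant siRNA replicate 2 (adjusted p = 0.215) or specific siRNA replicate 1 (adjusted p = 0.192). Foxd3, a neural crest factor, was below the median on all arrays and was not tested. It had 12.4 and 9.0 under specific siRNA and 81.3 and 88.6 under mutant siRNA, and is named here after its values were seen.

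Among other Schwann cell factors 6 of 22 tested genes, Creb1 included, were lower and 1 was higher by the brightest probe set, with a median of -0.16. With the replicate block 7 were lower, with Hes1 added (-0.51, adjusted p = 0.0478, against 0.128 without the block). Without mutant siRNA replicate 1 the count fell to 2 lower and 0 higher, and without mutant siRNA replicate 2 to 3 lower and 0 higher. Myrf, known as the myelin regulatory factor of oligodendrocytes, came closest to the profile of Sox10 among 68 probe sets of the factor lists, at a root mean square difference of 0.61. It had 19.9 and 85.3 under specific siRNA and 269 and 251 under mutant siRNA. Myrf, too, passed the filter only through the mutant siRNA arrays. Its log2 fold change of -2.58 (SE 0.71, adjusted p = 0.0300) missed the threshold when mutant siRNA replicate 1 (adjusted p = 0.147) or replicate 2 (adjusted p = 0.128) was left out, and as one specific siRNA signal lay below the 25th percentile the size is not established. Jun, the AP-1 factor of the repair Schwann cell, was lower in all 3 probe sets, at -1.16, -1.92 and -1.27 (adjusted p = 0.0107, 0.00571 and 0.0164). The first and the last of these calls were lost without mutant siRNA replicate 1 (adjusted p = 0.0655 and 0.104). Srebf1, a regulator of lipid synthesis, had 215 and 154 under specific siRNA and 1051 and 392 under mutant siRNA, and was at -1.74 (adjusted p = 0.0231, and 0.132 without mutant siRNA replicate 1). Etv5, an ETS factor downstream of ERK, was at -1.27 (adjusted p = 0.0124, and 0.0868 without mutant siRNA replicate 2). Ezh2, the methyltransferase of Polycomb complex PRC2, was at -1.36 (adjusted p = 0.00710) and at -1.37 in a dimmer probe set (adjusted p = 0.0112). The call of the dimmer one did not hold without mutant siRNA replicate 1 (adjusted p = 0.0532) or replicate 2 (adjusted p = 0.0582). The gene that was higher was Yy1, at 0.55 (adjusted p = 0.0360), a call lost with any 1 of the 4 arrays left out, at adjusted p of 0.0788 to 0.189. Creb1, named after its values were seen, had a probe set at -1.05 and another at 1.22, both called (adjusted p = 0.0159 and 0.0153), so that no direction can be given for it. Without mutant siRNA replicate 1 neither was called (adjusted p = 0.106 and 0.0836).

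**Figure D4:**
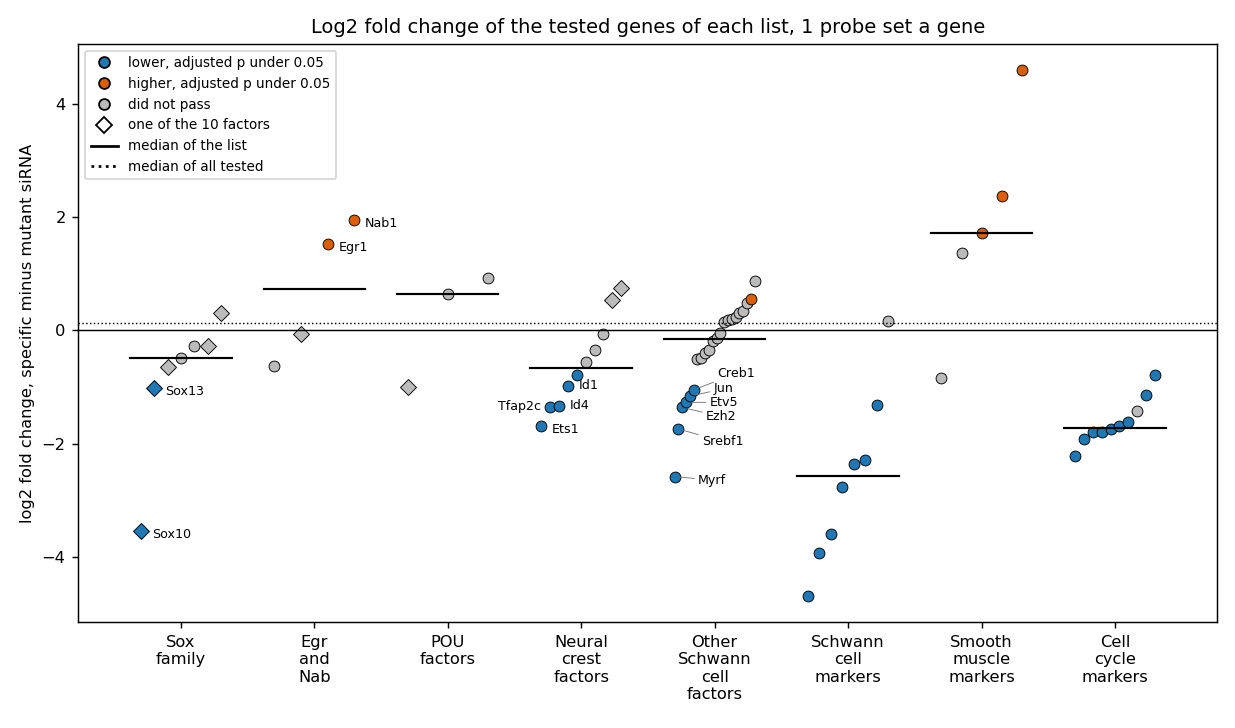
Log2 fold change, specific minus mutant siRNA, of the tested genes of 8 lists, with the brightest probe set of each gene as a point (diamonds for the lineage factors), coloured by the limma call, the list median as a line and the median of all tested probe sets as a dotted line. Sox10 and Sox13 are the 2 called members of the Sox family, 9 of 10 cell cycle markers are lower and 3 of 5 tested smooth muscle markers are higher.

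Several markers of cell identity and of division differed between the siRNA groups. Counted by gene, 2 of the 9 tested factors were lower, Sox10 and Sox13, and Zeb2 was higher in 1 of its 5 probe sets. Of 8 tested Schwann cell markers 7 were lower, among them Erbb3, which passed the filter only through the mutant siRNA arrays. The signals of the list summed to 6692 and 9829 under specific siRNA and 29105 and 21737 under mutant siRNA. Without mutant siRNA replicate 1 the count was 5. Of 5 tested smooth muscle markers 3 were higher, Myl9, Acta2 and Tagln. Acta2 (limma adjusted p = 0.0182, and 2.46e-06 with the replicate block) differed by 2.49 within the replicate 1 pair and 2.25 within the replicate 2 pair. It was not called without mutant siRNA replicate 1, at 1.55. All probe sets of that list, untested ones included, summed to 32694 and 44565 under specific siRNA and 7054 and 12621 under mutant siRNA. Most of the specific siRNA sums came from Tagln (21242 and 22657) and Myl9 (8612.5 and 15682). Myh11 was at 1.37 and was not called (adjusted p = 0.137). This probe set passed the filter only through the specific siRNA arrays, a selection that favours a higher value there. Its other probe set was too dim to be tested. Smtn was at -0.84 (adjusted p = 0.0633), with its specific siRNA arrays at 279.8 and 400.5 below its mutant siRNA arrays at 521.9 and 770.5. With the replicate block Smtn was called lower (adjusted p = 0.0127). The other smooth muscle genes Cnn1, Des, Lmod1 and Actg2 were too dim to be tested. Of 10 cell cycle markers 9 were lower, with sums of 15995 and 27505 under specific siRNA and 54939 and 58966 under mutant siRNA. The exception, Mki67, was at -1.43 (adjusted p = 0.0641) and passed with the replicate block (adjusted p = 0.00033), which gave 10 of 10. Without mutant siRNA replicate 1 or without mutant siRNA replicate 2 the count fell to 6, and without specific siRNA replicate 1 to 7. The fibroblast markers Col1a2, Dcn, Lum, Pdgfra and Thy1 were too dim to be tested. The collagen genes Col1a1 and Col3a1 were at 0.70 and 1.5 by their brightest probe sets (adjusted p = 0.0832 and 0.0770). In these, both specific siRNA arrays lay above both mutant siRNA arrays. They passed with the replicate block (adjusted p = 0.0240 and 0.0277). A dimmer Col1a1 probe set was at -0.04 (adjusted p = 0.946), with overlapping groups. The part of these differences in the values of Sox13, Ezh2, Id4 and the other factors was not tested. No macrophage marker was bright enough to be tested, and none of 2 neuron markers and 1 endothelial marker that were tested passed, also at an unadjusted p under 0.05. Of 15 genes listed as Sox10 targets in the literature 12 had a probe set, and Mbp, Gjb1, Mag, Mitf, Dct and Ret did not reach the filter. Of the 6 tested, 4 were lower. One of these is Sox10 itself, which the siRNA targeted, and the others were Erbb3, S100b and Cntf, while Egr2 and Pou3f1 did not pass. Erbb3 passed the filter only through the mutant siRNA arrays, at 674 and 438. It had 35.0 and 32.6 under specific siRNA, close to background. The call of Cntf (-1.42, adjusted p = 0.0135) did not hold without mutant siRNA replicate 1 (adjusted p = 0.111).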

How the data were processed

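RT4D6 RNA was hybridised to 4 Affymetrix Rat 230 2.0 arrays of 1 colour. The authors deposited MAS5 signals (named so in the submitters' processing notes), an intensity on a linear scale, with the 2% trimmed mean of each array at 500.2. The MAS5 version and detection calls were not given in the sources used here, and the median normalization and filters of the methods are not in the values. Of 31099 probe sets 57 controls were removed, and symbols came from the platform annotation (20826 probe sets with a single symbol). Log2 signals were centred on array medians, filtered and fitted with limma 3.58.1 in R 4.3.3 (lmFit, eBayes with an intensity trend), without a block. The code was tested on simulated data. Python 3.11.15 with pandas 2.3.3 made the tables, and matplotlib 3.10.9 the plots.

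The study describes pairs of cell samples, which the labels number as replicates. Arrays that share a number deviated together from the means of their groups, with a correlation of 0.14 over tested probe sets, and blocked values stand beside the results they change. Alternatives were other scalings, treatments of low signals, filters, variance models, the methods' t-test (taken as unpaired with equal variances on log2 signals) and each array left out in turn, where the lone array is assumed to vary like the other group. The factors and lists were chosen with earlier results of these data known. Named were the factors, the called list genes with the largest changes (up to 4 in each direction) and the genes nearest to the Sox10 profile, and a few more are named as such or as relatives. A gene is counted by its brightest tested probe set. Promoters are from RefSeq (GRCr8). P-values from limma rest on the spread between these cell samples and on spread borrowed from all tested probe sets.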

Additional observations from a re-analysis of the deposited data

How the results depend on the processing

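Leaving out 1 array at a time put the log2 fold change of Sox10 between -4.09 and -3.00, and it kept its call under every alternative except the methods' t-test after Benjamini-Hochberg adjustment (-3.54, adjusted p = 0.184), which called 0 of all probe sets lower and 2 higher, none of them among the 23. That test at an unadjusted p of 0.05 gave 1386 lower and 2444 higher over all, and 2 lower and 0 higher among the 23. Among these, 1 was lower and 0 higher without the filter and without the intensity trend. With the replicate block 2 were higher, the second being Zeb2. The block changed no other call among the 23. Of the list genes counted by their brightest probe set, it changed the calls given with Nab2, Pou6f1, Id3, Hes1, Smtn, Mki67, Col1a1, Col3a1, Tyrp1 and Pmel. Leaving out arrays gave 1 to 2 lower and 0 to 2 higher. Over all probe sets the counts were 1956 lower and 2348 higher, 1187 and 1177 without the trend, 2580 and 3308 with the replicate block, and 706 to 2519 lower and 924 to 2128 higher with an array left out. They were 2280 and 1940 with signals as deposited.

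Signs turned with an array left out for 4 Sox4 probe sets (ranges -0.37 to 0.08, -0.51 to 0.22, -0.46 to 0.47 and -0.08 to 0.56), for Egr2 (-1.09 to 0.95), for 1 Zeb2 probe set (-0.97 to 0.21) and for Zeb1 (-0.22 to 0.09), none of them called. The cause was not tested. The third Sox4 range belongs to the probe set at 0.01, which was -0.07 with signals as deposited and -0.06 with quantile normalization.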

Other observations

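Markers of the melanocyte, another lineage in which Sox10 stays on, gave mixed values. Tyrp1 and Pmel, the 2 of 5 listed genes that were tested, were not called by their brightest probe sets. Tyr, Dct and Mlana were too dim to be tested. Tyrp1, an enzyme of melanin synthesis, gave signals of 1177 and 2164 under specific siRNA and 1270 and 327 under mutant siRNA, a log2 fold change of 1.39 (adjusted p = 0.103 from limma). The difference lay in the replicate 2 pair, at 2.85, against -0.08 in the replicate 1 pair, and with the replicate block it passed (adjusted p = 0.0246). A second Tyrp1 probe set was at 1.28 (adjusted p = 0.0498), and was no longer called without mutant siRNA replicate 2 (adjusted p = 0.234), specific siRNA replicate 1 (adjusted p = 0.0560) or specific siRNA replicate 2 (adjusted p = 0.103). Pmel, a structural protein of the melanosome, had 226 and 138 under specific siRNA and 374 and 309 under mutant siRNA, at -0.86 (adjusted p = 0.0816, and 0.0365 with the replicate block). Mitf, a factor of melanocytes, was too dim to be tested in both probe sets, and its pairs went in opposite directions.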
